A study of Mus musculus with 26 samples.

Results

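Macrophages that had been given tumor-cell factors without fibroblasts were compared with macrophages that had been given fibroblasts without tumor-cell factors. The comparison rests on 7 of the 26 libraries of the series. They are the 4 libraries of macrophages cultured on their own in the spent medium of the mouse breast cancer line 4T1 (4T1 CM), and the 3 libraries of macrophages that shared wells with mammary fibroblasts in DMEM. The libraries were chosen by their labels alone, and all 11822 genes listed for macrophages were considered. The study grew bone-marrow-derived macrophages and fibroblasts of the mammary fat pad, apart or together, in DMEM or in 4T1 CM, and measured messenger RNA by sequencing its 3' ends. The 14 macrophage libraries also include 4 of macrophages co-cultured with fibroblasts in 4T1 CM and 3 of macrophages at day 0, which are set beside the other groups where they place a value. The columns matched to day 0 are headed as macrophages in DMEM, while the sample titles with the same numbers say day 0, and the titles are followed here.

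Every macrophage came from female BALB/c mice, 8 weeks old and with no genetic change named in the labels, and was grown from bone marrow in DMEM with serum and medium conditioned by L929 cells, a fibroblast line that secretes the macrophage growth factor CSF1. The macrophages were reseeded on day 7 of that growth. The group called 4T1 CM alone here was then cultured without a partner in 4T1 CM. The group called co-culture in DMEM shared collagen I coated wells with normal mammary fibroblasts, which for each replicate came from a pool of 2 females, in DMEM with serum. The fibroblasts had been depleted of CD45 and EpCAM positive cells before seeding. All macrophages carry the label of live cells positive for F4/80 and CD11b, the products of Adgre1 and Itgam. Co-cultures are labelled with a duration of 7 days, while no source used here gives a harvest day for the cultures in 4T1 CM alone. The groups therefore differ in medium, in the partner cell and perhaps in time and in the coating of the wells. A difference between them cannot be assigned to any of these. Whether replicates came from separate mice is not stated for macrophages, so the p-values measure the spread between these libraries.

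Macrophages present protein fragments to helper T cells on MHC class II molecules, whose genes share a promoter module that is switched on by the coactivator CIITA. They answer interferons through transcription factors that act on interferon-stimulated response elements. Their survival and division depend on CSF1, which fibroblasts secrete, and granulocyte-macrophage colony-stimulating factor (GM-CSF), a product of many tumor cells, acts on them through a receptor whose signaling chain is encoded by Csf2rb.

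Depth was 2243924 to 3662412 reads per library in 4T1 CM alone and 2345741 to 4140985 in co-culture in DMEM. Levels below are normalized reads, that is, reads of a gene divided by the authors' size factor of the library. Differences are log2 fold changes ± SE from the edgeR quasi-likelihood test, positive where a gene was higher in 4T1 CM alone, with p-values adjusted by the Benjamini-Hochberg method over the 10088 genes tested. A gene is called where the adjusted p is under 0.05. Adgre1 stood at 2483, 2183, 2174 and 2743 in 4T1 CM alone and at 2679, 2466 and 1759.9 in co-culture in DMEM, which overlap (log2 fold change 0.08 ± 0.18, adjusted p = 0.851). Itgam was higher in 4T1 CM alone (log2 fold change 0.65 ± 0.16, adjusted p = 0.0126), a call that was lost without co-culture in DMEM replicate 1 (adjusted p = 0.051), and Csf1r, the receptor of CSF1, passed narrowly (log2 fold change 0.66 ± 0.20, adjusted p = 0.0347). The call of Csf1r was lost on leaving out any of 5 libraries, with adjusted p-values of 0.137 and 0.158 without co-culture in DMEM replicate 2 or 3, and of 0.106, 0.0573 and 0.0636 without 4T1 CM alone replicate 1, 2 or 4. With only the 2 groups in the fit it was lost too (adjusted p = 0.0519). The same held without the fibroblast-enriched genes (0.0524) and with the predicted fibroblast reads subtracted (0.0536), both described below. All 19 macrophage markers were listed, Cd68 and Lyz2 among them. Their summed level was 158783 to 215314 in 4T1 CM alone and 136950.0 to 168845 in co-culture in DMEM. A large part of these sums was Lyz2, which averaged 104800 and 95080. Of 18 markers tested, 3 were higher in 4T1 CM alone, 1 in co-culture in DMEM and 14 were not called. Cd14 and Lcp1 were among those with a higher mean in co-culture in DMEM, at 3600 and 3312 against 2163 and 2329.

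Fibroblast transcripts were present in the macrophages from co-culture. To size this fibroblast share, each of 24 fibroblast markers was expressed in percent of its level in fibroblasts sorted from the co-cultures with that medium, and the median was taken. It was 1.90%, 1.90% and 7.24% in the 3 co-cultures in DMEM (mean 3.68% ± 3.09, SD, n = 3, and 1.90% without replicate 3) and 0.0237%, 0.0432%, 0.195% and 0% in the 4 libraries of 4T1 CM alone. Every co-culture library lay above every library of 4T1 CM alone (exact permutation test, two-sided, p = 0.0286, the smallest value that 35 splits allow). Replicate 3 of co-culture in 4T1 CM reached 18.9%, so values of that library carry more fibroblast RNA. Genes at least 4 times higher in mono-cultured fibroblasts in DMEM than in macrophages at day 0 and in 4T1 CM alone are called fibroblast-enriched here, and 745 of them were tested. The level in 4T1 CM alone is part of that rule, so the direction of these genes is in part set by it. Markers of other cell types were listed in part. None of the 7 mast cell and basophil markers was listed, and of 9 lymphocyte markers only Cd79b was, at 0.439 in 4T1 CM alone and 3.95 in co-culture in DMEM. Of 8 dendritic cell markers, Batf3 averaged 17.7 and 10.3 and Cd209a 5.73 and 0.395, in the same order, and Flt3, Xcr1, Clec9a, Zbtb46, Ccr7 and Siglech were not listed. Of 10 endothelial markers, 3 were listed. Kdr, a receptor of VEGF, was higher in 4T1 CM alone, at 77.6, 94.1, 132 and 122 against 24.9, 48.8 and 53.0 (log2 fold change 1.32 ± 0.28, adjusted p = 0.00436), Tie1 averaged 4.39 and 9.19 and Egfl7 2.33 and 8.83, while Pecam1 and Cdh5 were not listed. Of 11 neutrophil and progenitor markers, S100a8 averaged 35.5 and 15.1 and Prtn3 1.61 and 8.60, and of 8 epithelial markers Krt19 averaged 0 and 4.03 and Cdh1 0.647 and 2.58. Krt19 did not pass the filter on low counts, and Tie1, Egfl7, S100a8, Prtn3 and Cdh1 were not called. The summed endothelial markers, most of which was Kdr, ranged from 82.9 to 141 in 4T1 CM alone and from 37.9 to 72.2 in co-culture in DMEM. The part of these cell types in the results was not tested.

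Of the genes tested, 1462 were called, which is 14.5% of them, and 2669 had an unadjusted p under 0.05. The 629 genes higher in 4T1 CM alone made up 6.24% and the 833 higher in co-culture in DMEM 8.26%. Of the 833, 322 were fibroblast-enriched and 511 were not, while 10 of the 629 were. Changes of at least 2-fold were found for 253 genes higher in 4T1 CM alone and 343 higher in co-culture that were not fibroblast-enriched. The groups did not overlap for 25% of all genes tested. Leaving out co-culture in DMEM replicate 3 lowered the 1462 calls to 997, of which 413 were higher in 4T1 CM alone. That library has the highest fibroblast share of the 7. Subtracting the predicted fibroblast reads lowered the 1462 calls to 1051, of which 552 were higher in co-culture in DMEM.

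**Figure D1:**
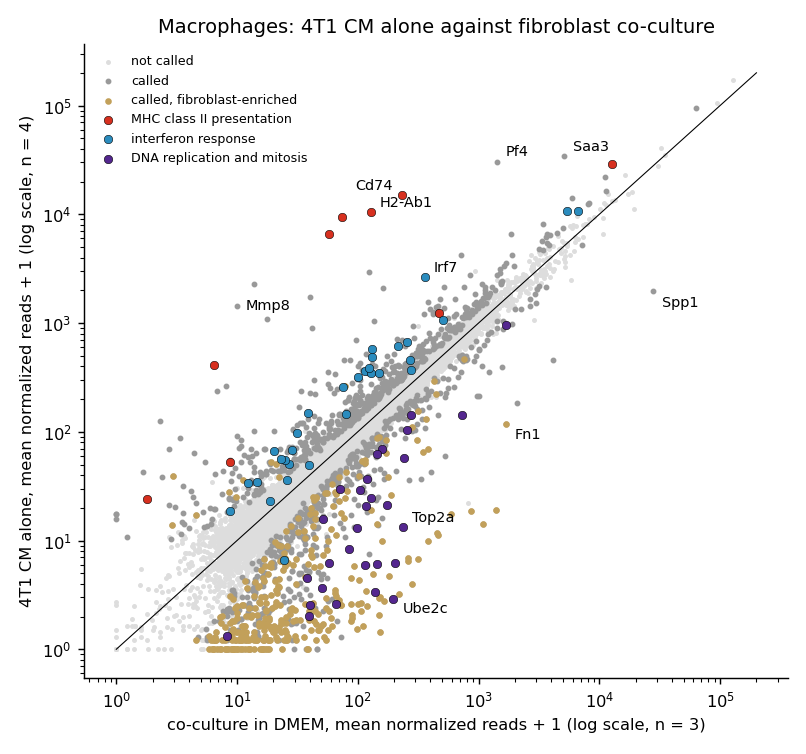
Each point is 1 of 10088 genes, placed by its mean normalized reads plus 1 in co-culture in DMEM (x axis, 3 libraries) and in 4T1 CM alone (y axis, 4 libraries), both on log scales. The MHC class II genes (red) and most interferon-response genes (blue) lie above the diagonal, while the DNA replication and mitosis genes (purple) and the called fibroblast-enriched genes (tan), apart from 10, lie below it.

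MHC class II genes had the largest median difference of the gene lists. All 9 tested members of the list were higher in 4T1 CM alone, with a median log2 fold change of 6.04 beside 0.01 for all genes tested, and the groups did not overlap for any of the 9. H2-Ab1 encodes the beta chain of the I-A molecule, and stood at 15557, 8596, 7990.2 and 9617 in 4T1 CM alone against 179.9, 67.9 and 135 in co-culture in DMEM. The difference was 81.8-fold (log2 fold change 6.37 ± 0.57, adjusted p = 2.49e-06). H2-Aa, the alpha chain, stood at 8209.7, 8282, 15351 and 5975 against 147, 45.6 and 26.2 (log2 fold change 7.08 ± 0.78, adjusted p = 1.41e-05). The lowest library of 4T1 CM alone was thus far above the highest co-culture library for both chains of I-A. H2-Eb1 and H2-Ea, the chains of the I-E molecule, differed by 115-fold and 179-fold, and H2-Ea had the largest positive change of all genes that met the naming criteria (2292 ± 783 against 12.8 ± 10.4, adjusted p = 3.44e-06).

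The accessory genes moved the same way. Cd74, the invariant chain that escorts class II molecules to the endosome, stood at 13999, 15128, 19409.5 and 11289.8 in 4T1 CM alone and at 433, 183 and 83.1 in co-culture in DMEM, a 64.2-fold difference (adjusted p = 2.01e-05). H2-DMb1, a chain of the DM molecule that loads peptides, stood at 532, 322, 416 and 361 against 7.10, 5.31 and 3.93 (adjusted p = 3.03e-06). Ciita itself was at 30.3, 15.3, 19.8 and 27.4 in 4T1 CM alone and at 2.37, 0 and 0 in co-culture (adjusted p = 0.00159), so that co-cultures gave 2 reads in 1 library and none in the others. The smallest change in the list was that of Ctss, the cathepsin that trims the invariant chain, at 2.27-fold (log2 fold change 1.20 ± 0.18, adjusted p = 0.000192). All 9 calls were kept under every alternative in which a difference from 0 was tested, and 7 passed a test against a 2-fold change. Genes of this list lie close together on chromosome 17 of mm10 apart from Cd74, Ciita and Ctss: H2-Ab1 from 34257689 to 34269419 on the plus strand, H2-Aa from 34282744 to 34287823 on the minus strand and H2-Eb1 from 34305867 to 34316674 on the plus strand. Reads of H2-DMb1 and its near copy H2-DMb2 may have been split between them by the counting.

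Day 0 and the combined condition give the context of these levels. Cd74 stood at 1987, 6735 and 6823 at day 0, between both groups, and at 629.7, 167, 156 and 237 in co-culture in 4T1 CM. Co-cultures were low in either medium: the edgeR contrast of co-culture in 4T1 CM with co-culture in DMEM gave an adjusted p of 0.772 for Cd74, 0.904 for H2-Aa and 0.148 for H2-Ab1, while that with 4T1 CM alone gave 6.29e-06, 2.71e-06 and 1.67e-06. Batf3, the dendritic cell factor named above, did not pass (log2 fold change 0.75 ± 0.38, adjusted p = 0.217), and the summed level of the 2 listed dendritic cell markers was 15.5 to 34.8 in 4T1 CM alone and 9.47 to 13.1 in co-culture in DMEM, whose part in the MHC class II difference was not tested.

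The promoters of the 2 class II genes below are shown because they hold the Y box of the class II module, a reversed CCAAT box that is bound by NF-Y. The sequences are RefSeq promoters on GRCm38.p6, from 250 bases before to 50 after the gene start, read 5′ to 3′ on the gene's strand, and the capitals mark the letters CTGATTGG. They are those of the reference strain, C57BL/6, and BALB/c cells may differ from them. H2-Aa is shown at chr17:34287774-34288073 on the minus strand and H2-Eb1 at chr17:34305617-34305916 on the plus strand.
H2-Aa: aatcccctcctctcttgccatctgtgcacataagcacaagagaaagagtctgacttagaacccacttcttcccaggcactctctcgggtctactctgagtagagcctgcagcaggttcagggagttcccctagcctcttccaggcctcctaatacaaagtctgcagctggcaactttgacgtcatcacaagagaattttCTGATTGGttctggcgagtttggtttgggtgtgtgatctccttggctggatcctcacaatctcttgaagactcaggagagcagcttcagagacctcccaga
H2-Eb1: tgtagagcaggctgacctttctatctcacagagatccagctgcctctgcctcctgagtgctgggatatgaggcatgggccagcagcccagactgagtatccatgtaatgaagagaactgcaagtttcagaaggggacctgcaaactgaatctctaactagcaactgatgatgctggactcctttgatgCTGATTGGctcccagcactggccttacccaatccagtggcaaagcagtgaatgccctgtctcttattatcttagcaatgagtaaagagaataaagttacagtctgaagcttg
The Y box starts 51 bases before the gene start in H2-Aa and 62 bases before it in H2-Eb1. It was found, on either strand, in 2 of the 7 promoters that the table holds for 6 genes of the list and in 4.1% of all 32851 promoters. Among the genes tested it was found in 5.28% of promoters, among called genes at least 2-fold higher in 4T1 CM alone in 4.41%, and among those at least 2-fold higher in co-culture and not fibroblast-enriched in 14.6%. No test was made of these shares. This motif was added after the values were seen. A match describes the letters in the window and is not evidence of binding.

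Genes of the interferon response were also higher in 4T1 CM alone. Of 31 members tested, 21 were higher in 4T1 CM alone, 1 was higher in co-culture in DMEM and 9 were not called, with a median log2 fold change of 1.33. Irf7, the factor that amplifies the interferon response, stood at 2008, 2683, 3245 and 2582 in 4T1 CM alone and at 355, 395 and 318 in co-culture in DMEM. Every library of 4T1 CM alone was at least 5 times the highest co-culture library (log2 fold change 2.90 ± 0.37, adjusted p = 5.26e-05). Oas3, a sensor of double-stranded RNA that activates RNase L, stood at 391, 577, 624 and 694 against 118, 126 and 143 (log2 fold change 2.16 ± 0.32, adjusted p = 0.000195). Isg15, a ubiquitin-like modifier, stood at 302, 392, 401 and 349.7 against 108, 125 and 109 (log2 fold change 1.68 ± 0.27, adjusted p = 0.000446), and Zbp1, a sensor of left-handed nucleic acids, was 3.11-fold higher (adjusted p = 4.34e-05). The groups did not overlap for any of these genes.

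At day 0, Isg15 stood at 498, 187 and 224 and Oas3 at 797, 363 and 383, above every library of co-culture in DMEM. This did not hold for the list as a whole. Zbp1 overlapped, at 223, 126 and 113 at day 0 against 101, 132 and 138 in co-culture in DMEM. The summed level of the 33 listed members overlapped too, at 12645 to 20994 at day 0 against 13653 to 17488. With both fibroblasts and 4T1 CM, Isg15 stood at 73.1, 88.4, 116 and 105 and Irf7 at 575, 410.5, 390.3 and 1166, and the contrast with 4T1 CM alone gave adjusted p-values of 4.83e-05 and 0.000183. The member that went the other way was Cxcl10, a T cell chemokine, at 8.03, 5.88, 2.59 and 6.22 in 4T1 CM alone against 17.8, 24.4 and 28.8 in co-culture in DMEM (adjusted p = 0.0186; 0.0795 without co-culture in DMEM replicate 3 and 0.0504 without 4T1 CM alone replicate 3). Between 18 and 22 members were higher in 4T1 CM alone when any 1 library was left out, and 6 passed a test against a 2-fold change.

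The promoters of Isg15 and Oas3 are shown as examples of the interferon-stimulated response element, searched on both strands as GAAA, any 2 bases and GAAA in a row, and printed in capitals. Isg15 is at chr4:156200769-156201068 and Oas3 at chr5:120777610-120777909, both on the minus strand of GRCm38.p6.
Isg15: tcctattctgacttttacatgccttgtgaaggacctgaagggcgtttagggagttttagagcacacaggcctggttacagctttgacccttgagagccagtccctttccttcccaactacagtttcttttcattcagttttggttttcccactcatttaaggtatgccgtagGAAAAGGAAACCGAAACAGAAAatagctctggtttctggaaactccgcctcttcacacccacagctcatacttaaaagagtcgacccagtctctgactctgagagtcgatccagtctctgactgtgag
Oas3: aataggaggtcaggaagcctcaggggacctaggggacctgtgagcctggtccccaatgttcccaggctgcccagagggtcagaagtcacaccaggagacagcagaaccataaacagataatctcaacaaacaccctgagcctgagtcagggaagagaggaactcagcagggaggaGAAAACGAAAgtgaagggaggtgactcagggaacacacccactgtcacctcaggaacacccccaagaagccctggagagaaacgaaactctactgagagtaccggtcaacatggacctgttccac
Isg15 holds 3 overlapping matches, the first of them 78 bases before the gene start, and Oas3 holds 1, 75 bases before it. The element was found in 13 of 26 promoters of 22 genes of the list (50%), in 3.15% of the promoters of all genes tested and in 3.44% of all promoters. Among called genes at least 2-fold higher in 4T1 CM alone it was found in 10.3% of 272 promoters, and among those at least 2-fold higher in co-culture and not fibroblast-enriched in 4.05% of 321.

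Class I presentation differed less. Of 14 members tested, 6 were higher in 4T1 CM alone and 0 in co-culture in DMEM by edgeR, with a median log2 fold change of 0.52; 11 had an unadjusted p under 0.05 and DESeq2 called 7. H2-T23, the non-classical class I gene whose product binds the receptors CD94 and NKG2A, stood at 1303, 1585, 1441 and 1238 against 406, 407 and 507 (log2 fold change 1.68 ± 0.20, adjusted p = 2.86e-05). Psmb10, a subunit of the immunoproteasome, was 2.01-fold higher (adjusted p = 6.44e-05) and Tapbp, which encodes tapasin of the peptide-loading complex, 1.93-fold (adjusted p = 0.000345). The light chain gene B2m did not pass (log2 fold change 0.46 ± 0.23, adjusted p = 0.225).

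**Figure D2:**
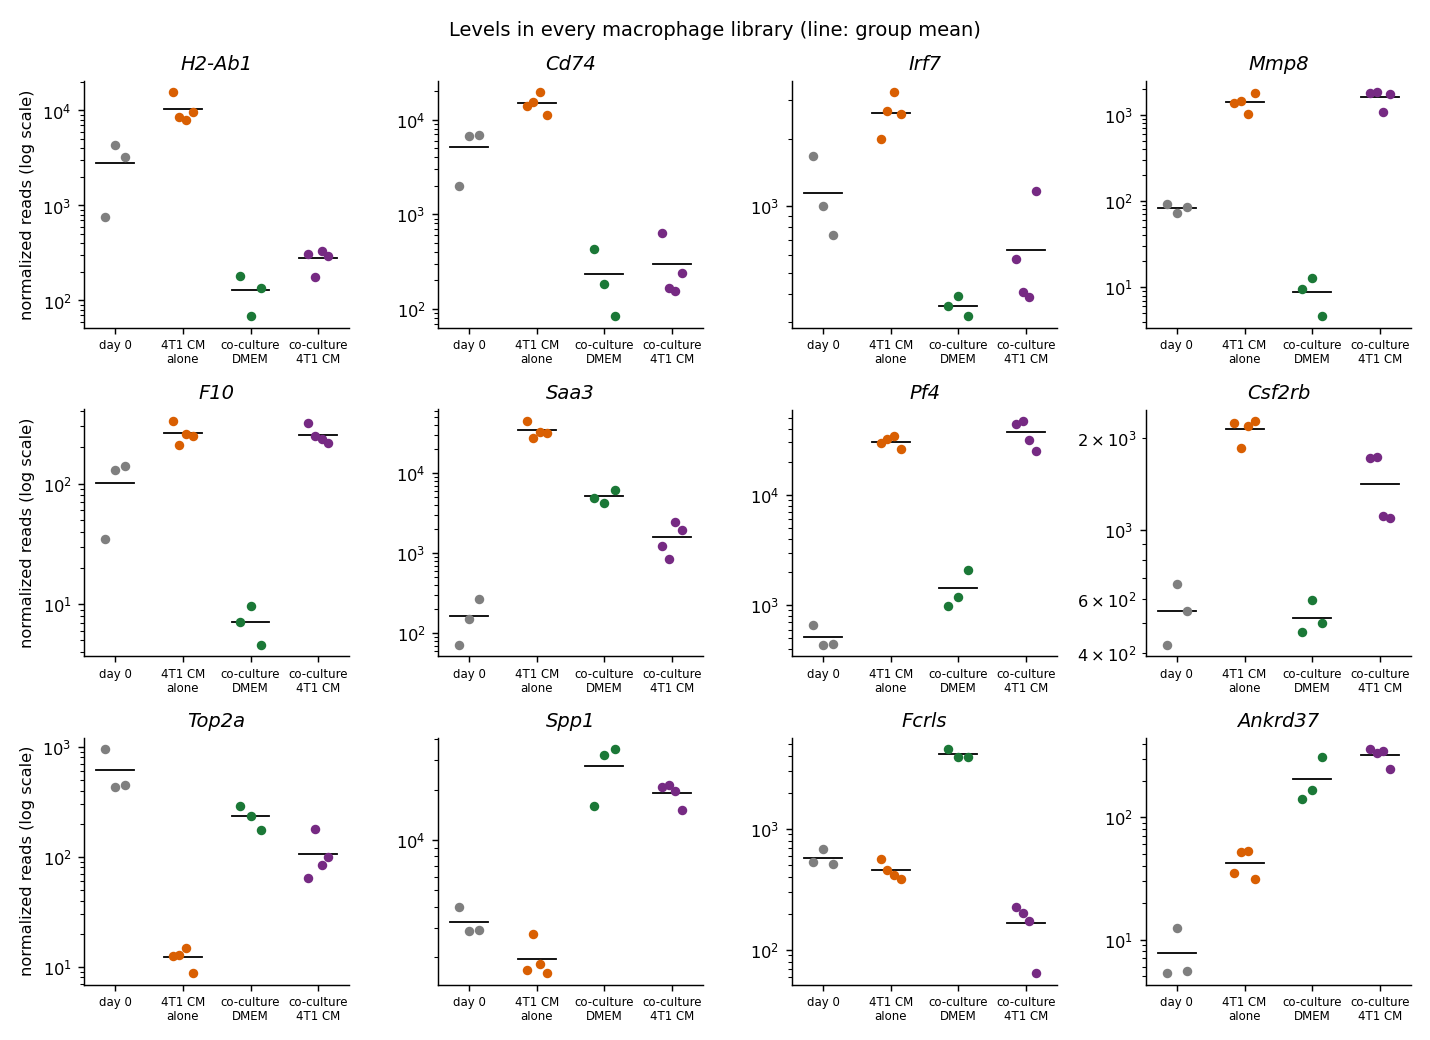
Normalized reads of 12 genes in every macrophage library (points) with group means (lines), on log scales, for day 0 (3 libraries), 4T1 CM alone (4), co-culture in DMEM (3) and co-culture in 4T1 CM (4). H2-Ab1 and Cd74 were low in both co-cultures, whereas Mmp8, F10 and Pf4 were low in co-culture in DMEM and high in both groups with 4T1 CM.

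Mmp8, the neutrophil-type collagenase, was among the genes with the largest differences and stood at 1385, 1471, 1021 and 1801 in 4T1 CM alone and at 9.47, 12.7 and 4.58 in co-culture in DMEM, a 159-fold difference (log2 fold change 7.40 ± 0.35, adjusted p = 2.41e-09). No other gene had a smaller adjusted p among those named here. In co-culture in 4T1 CM it stood at 1818, 1837, 1080.1 and 1766, a range that overlaps that in 4T1 CM alone (adjusted p = 0.555 for that contrast), and at 93.6, 72.8 and 85.5 at day 0. Pf4, the heparin-binding chemokine CXCL4, was also lower in co-culture in DMEM than in both groups with 4T1 CM. It stood at 29353, 32148, 34331 and 26079 in 4T1 CM alone, 987, 1191 and 2075 in co-culture in DMEM and 44048, 47193, 31596 and 25286 in co-culture in 4T1 CM. At day 0 Pf4 stood at 655, 435 and 441, below every library of co-culture in DMEM, whereas Mmp8 at day 0 lay above them. The difference between the groups compared was 21.5-fold (log2 fold change 4.45 ± 0.31, adjusted p = 2.33e-07).

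F7 and F10, which encode coagulation factors VII and X, lie next to each other on chromosome 8 of mm10 with 1498 bases between them (F7 from 13026034 to 13035809 on the plus strand and F10 from 13037308 to 13056676 on the plus strand). F10 stood at 333, 209, 259.7 and 248 in 4T1 CM alone and at 7.10, 9.55 and 4.58 in co-culture in DMEM (log2 fold change 5.28 ± 0.47, adjusted p = 2.3e-06), and F7 at 74.0, 60.0, 69.0 and 68.4 against 2.37, 2.12 and 0.655 (log2 fold change 5.39 ± 0.54, adjusted p = 6.1e-06). In co-culture in 4T1 CM, F10 was at 319, 249.9, 234 and 218 and F7 at 97.4, 129, 102 and 73.8. Both neighbours were thus low in co-culture in DMEM and high in both groups with 4T1 CM. At day 0, F10 stood at 34.7, 129 and 141 and F7 at 28.7, 87.5 and 91.7, above the levels in co-culture in DMEM.

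Of 10 acute-phase and defence genes tested, 5 were higher in 4T1 CM alone and 0 in co-culture by edgeR, with 7 at an unadjusted p under 0.05 and 6 called by DESeq2. The number fell to 3 without co-culture in DMEM replicate 1 or 3. Saa3, the serum amyloid A made by macrophages, stood at 45074, 27555, 32292 and 31216 against 4952, 4279 and 6098 (log2 fold change 2.76 ± 0.40, adjusted p = 0.000169). In co-culture in 4T1 CM it stood at 1227, 850.1, 2426 and 1928, below every library of both groups (adjusted p = 1.2e-06 against 4T1 CM alone and 0.00617 against co-culture in DMEM), and at day 0 at 71.7, 152 and 267. Slpi, an inhibitor of neutrophil elastase, was 13.1-fold higher (2115 ± 743 against 162 ± 32.1, adjusted p = 6.95e-07) and Hp, which encodes haptoglobin, 5.27-fold (adjusted p = 2.68e-05). Lyzl4, a lysozyme-like gene, stood at 1059, 1068, 996 and 1212 against 18.9, 11.7 and 19.6 (adjusted p = 9.75e-07), and Il1r2, the decoy receptor of interleukin 1, at 54.4, 29.4, 35.4 and 47.3 against 0, 0 and 1.96 (adjusted p = 9.88e-05).

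Receptors for colony-stimulating factors differed by member. Of 7 tested genes of the list, 4 were higher in 4T1 CM alone and 1, Csf1, in co-culture in DMEM. Over the alternatives, these counts ran from 2 to 4 and from 0 to 1. Csf2ra, which encodes another chain of the GM-CSF receptor, was not called (log2 fold change 0.08 ± 0.18, adjusted p = 0.832). Neither was Il3ra (log2 fold change 0.20 ± 0.21, adjusted p = 0.617). Csf2rb stood at 2224, 1858, 2183 and 2269.7 in 4T1 CM alone and at 468, 595 and 500.2 in co-culture in DMEM (log2 fold change 2.05 ± 0.21, adjusted p = 6.59e-06), and its neighbour and near copy Csf2rb2 at 1638, 1400.3, 1395 and 1792 against 354, 406 and 389 (adjusted p = 6.59e-06). Reads of this pair may have been split by the counting, so the division between them is uncertain. The log2 fold change of Csf2rb2 was 2.04 ± 0.21, and Csf2rb stood at 1720.3, 1732, 1114 and 1098 in co-culture in 4T1 CM. Cish and Socs1, feedback inhibitors of cytokine signaling, were higher too, Cish at 25.9, 17.6, 42.3 and 23.6 against 0, 4.24 and 5.24 (adjusted p = 0.00148) and Socs1 at 58.0, 41.2, 69.9 and 46.0 against 5.92, 5.31 and 11.8 (adjusted p = 2.82e-05). Predicted fibroblast RNA was 61.6% of the level of Cish and 75.1% of that of Socs1 in co-culture in DMEM.

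Surface and signaling genes of other kinds followed. Cd274, which encodes the checkpoint ligand PD-L1, stood at 109.7, 68.2, 132 and 93.3 in 4T1 CM alone against 4.73, 20.2 and 13.7 in co-culture in DMEM (log2 fold change 2.96 ± 0.35, adjusted p = 2.78e-05), and Cd86, a costimulator of T cells, at 51.3 ± 11.5 against 11.7 ± 1.27 (SD, n = 4 and n = 3, adjusted p = 0.000335). Cd274 stood at 107, 106, 68.5 and 142 and Cd86 at 88.1, 33.5, 39.8 and 52.5 in co-culture in 4T1 CM, which overlap with the levels in 4T1 CM alone. Clec4n, which encodes the fungal receptor dectin-2, was 5.91-fold higher (adjusted p = 4.26e-05), and Cxcr4, the receptor of CXCL12, stood at 832, 475, 729.8 and 796 against 201, 231 and 193 (adjusted p = 5.69e-05). Ly6a, the gene of Sca-1, stood at 2578, 3105, 3569 and 2509 against 85.2, 87.0 and 194 (adjusted p = 3.03e-06); this gene was chosen after its values were seen, and predicted fibroblast RNA was 129% of its level in co-culture. Ly6i and Ifitm1, Ahrr and Itgb7 were higher as well, by 94.0-fold, 44.6-fold, 39.9-fold and 18.8-fold (adjusted p = 3.97e-06, 0.000402, 2.33e-07 and 0.00013). Reads of Ly6i and Ly6a, members of 1 gene family with near copies, may have been divided between them by the counting. Ifitm1, an interferon-induced membrane protein, was at 5170.4, 1831, 715 and 142 in co-culture in 4T1 CM, against 39.1, 38.2 and 39.3 in co-culture in DMEM.

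Proteases, growth factors and adhesion genes moved in both directions. Of 14 metalloproteinase genes and their inhibitors, 3 were higher in 4T1 CM alone and 4 in co-culture in DMEM. Over all genes tested, 6.24% were higher in 4T1 CM alone and 8.26% in co-culture in DMEM. Of the 14, 5 were fibroblast-enriched, Timp3 among them. Mmp13, a collagenase, stood at 8.92, 17.6, 14.7 and 17.4 in 4T1 CM alone and had no read in co-culture in DMEM, which makes it at least 16.2-fold higher against a floor of 3 reads over that group (adjusted p = 0.00552). Mmp19 was 1.90-fold higher (adjusted p = 0.00246). Plaur, the receptor of urokinase, stood at 334, 214, 394 and 285 against 69.8, 103 and 119.8 (log2 fold change 1.66 ± 0.20, adjusted p = 3.71e-05). Gpnmb, a lysosomal glycoprotein, was 3.41-fold higher (adjusted p = 0.000117), Tgfbi, a matrix protein induced by TGF-beta, 2.83-fold (adjusted p = 0.00027) and Pdgfb, a growth factor for mesenchymal cells, 2.31-fold (adjusted p = 0.000322). In the other direction, Itga6, a chain of laminin-binding integrins, stood at 20.5, 31.7, 26.7 and 42.3 against 136, 116 and 74.6 (log2 fold change -1.83 ± 0.26, adjusted p = 0.00016) with a predicted fibroblast part of 0.562%, and Timp3, an inhibitor of metalloproteinases, at 0, 4.70, 1.73 and 0 against 52.1, 46.7 and 161 (adjusted p = 0.000357) with 44.4%.

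Among genes of the NRF2 antioxidant response, 8 of 21 tested were higher in 4T1 CM alone and 0 in co-culture by edgeR (8 at an unadjusted p under 0.05 and 8 called by DESeq2), with a median log2 fold change of 0.42. Osgin1 stood at 343, 252, 292 and 305 against 60.4, 25.5 and 41.2 (log2 fold change 2.84 ± 0.28, adjusted p = 5.02e-06) and Taldo1, an enzyme of the pentose phosphate path, at 4383, 3011, 3163 and 2846 against 1683, 1525 and 1618 (adjusted p = 0.000301). Hmox1, the haem-degrading member, did not pass (log2 fold change -0.43 ± 0.22, adjusted p = 0.225). The count fell to 4 without co-culture in DMEM replicate 2 or 3. Of 28 lysosomal genes, 10 were higher in 4T1 CM alone and 1 in co-culture, the former including Ctsz and Ctsk, cathepsins that were 1.76-fold and 3.37-fold higher (adjusted p = 0.00526 and 0.0068). The 1 became 0 without co-culture in DMEM replicate 2 or 3 or without 4T1 CM alone replicate 2 or 3, and the 10 became 6 without either of these co-culture libraries.

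**Figure D3:**
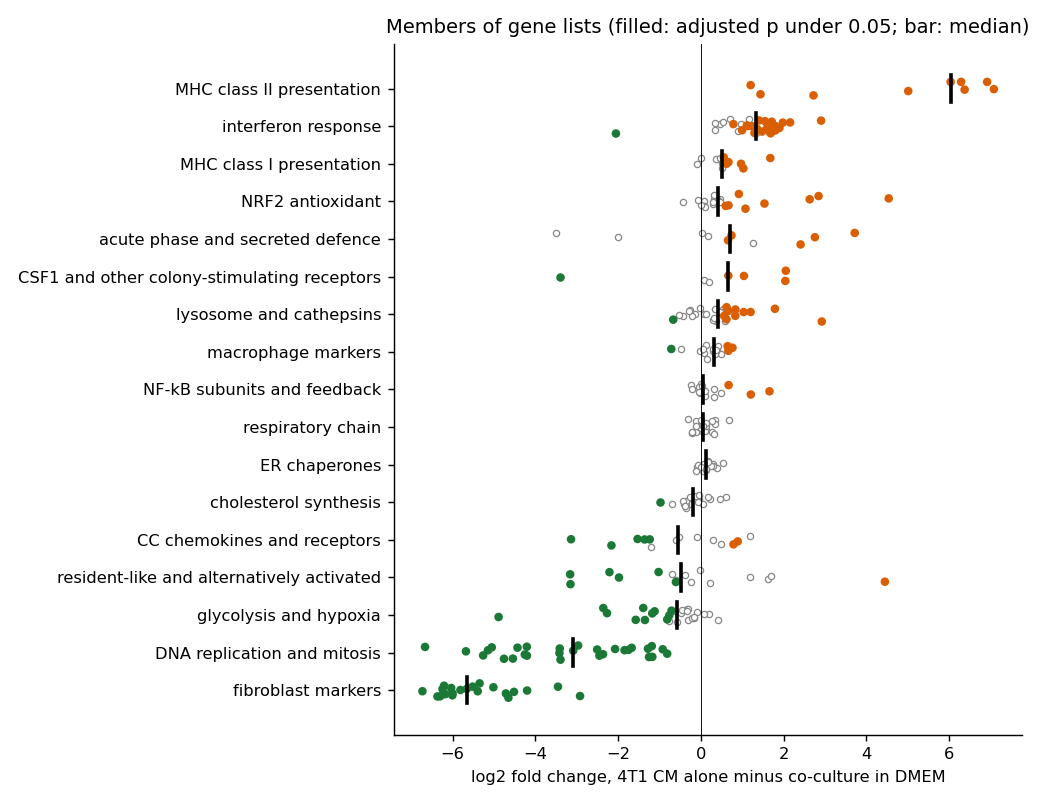
Log2 fold changes of the tested members of 17 gene lists, with positive values higher in 4T1 CM alone (orange) and negative values higher in co-culture in DMEM (green) where filled, which marks an adjusted p under 0.05. Vertical bars are list medians, which run from 6.04 for MHC class II presentation to -5.66 for fibroblast markers.

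In the other direction, genes of DNA replication and mitosis were higher in co-culture in DMEM. All 29 tested members of the list were called in this direction, with a median log2 fold change of -3.09, and the groups did not overlap for any of them. The 35 listed members, tested or not, summed to between 1638 and 2121 normalized reads in 4T1 CM alone and to between 5525 and 6042 in co-culture in DMEM. A large part of these sums was the tubulin gene Tubb5, which averaged 953 and 1700 (log2 fold change -0.82 ± 0.25). Top2a, the topoisomerase that untangles replicated chromosomes, stood at 12.5, 12.9, 14.7 and 8.71 in 4T1 CM alone and at 291, 236 and 177 in co-culture in DMEM (log2 fold change -4.20 ± 0.39, adjusted p = 3.03e-06). Ube2c, the ubiquitin-conjugating enzyme of the anaphase-promoting complex, stood at 0.892, 5.88, 0.863 and 0 against 229.6, 180.4 and 179 (log2 fold change -6.67 ± 0.64, adjusted p = 4.07e-06). Even the highest library of 4T1 CM alone was thus close to 0 for Ube2c.

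Other members show the same order. Ccnb2, a mitotic cyclin, stood at 3.57, 2.35, 3.45 and 0 against 194, 119.9 and 101 (log2 fold change -5.68 ± 0.53, adjusted p = 3.03e-06), Mki67 at 11.6, 10.6, 14.7 and 11.2 against 108, 104 and 81.2 (log2 fold change -2.97 ± 0.39, adjusted p = 7.59e-05), and Mcm5, a subunit of the replicative helicase, at 20.5, 15.3, 23.3 and 21.2 against 157, 201 and 167 (log2 fold change -3.09 ± 0.34, adjusted p = 1.42e-05). Ccnd1, the cyclin that links growth factors to the cell cycle, was 5.20-fold higher in co-culture (adjusted p = 0.00122) and Pcna, the replication clamp, 1.92-fold (adjusted p = 0.00814). Outside the list, Bub1b and Pbk, mitotic kinase genes, and Spag5 and Ankle1 had no read in 4T1 CM alone. Against a floor of 3 reads over that group, they were at least 59.3-fold, 59.2-fold, 47.8-fold and 37.9-fold higher in co-culture in DMEM (adjusted p = 2.1e-05, 1.59e-05, 0.00026 and 7.24e-05). Pimreg, Spc24, Neil3, Cep55, Ccna2, Hmmr and Nusap1 were among the 15 largest changes of this direction outside the fibroblast-enriched genes, as was Tk1, thymidine kinase, at 39.2-fold.

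Macrophages at day 0, a week into growth with L929 medium, stood above both groups for the summed list, at 7484 to 17167. The same held for Top2a, at 952, 435 and 452, and Ube2c, at 847, 331 and 346. It did not hold for Ccnd1, at 1545, 287 and 443 at day 0 against 598, 697 and 897 in co-culture in DMEM. Top2a stood at 63.7, 179, 84.4 and 99.6 in co-culture in 4T1 CM. Fibroblasts carry these transcripts too, and predicted fibroblast RNA made up 1.77% to 16.9% of the level of the 29 members in co-culture in DMEM, with a median of 5.79%. After subtraction of the predicted reads, 28 of the 29 were called. The count was 28 or 29 on leaving out any 1 library, and 20 passed a test against a 2-fold change. In these bulk libraries, fewer dividing cells and less of these RNAs per cell cannot be told apart.

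The promoters of Ube2c and Ccnb2 are shown because they hold several copies of the CCAAT box bound by NF-Y, and at least 1 copy of the cell cycle genes homology region (CHR) core TTTGAA, which in many mitotic genes lies close to the start. Capitals mark CCAAT and TTTGAA on either strand, so that reversed copies read ATTGG and TTCAAA. Ube2c is at chr2:164769679-164769978 on the plus strand and Ccnb2 at chr9:70421505-70421804 on the minus strand of GRCm38.p6.
Ube2c: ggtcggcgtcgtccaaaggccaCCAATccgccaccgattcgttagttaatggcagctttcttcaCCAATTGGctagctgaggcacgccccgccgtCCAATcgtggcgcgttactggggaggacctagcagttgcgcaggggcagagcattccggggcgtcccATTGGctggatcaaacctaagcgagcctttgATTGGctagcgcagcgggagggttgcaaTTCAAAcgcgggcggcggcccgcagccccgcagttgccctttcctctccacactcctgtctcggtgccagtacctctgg
Ccnb2: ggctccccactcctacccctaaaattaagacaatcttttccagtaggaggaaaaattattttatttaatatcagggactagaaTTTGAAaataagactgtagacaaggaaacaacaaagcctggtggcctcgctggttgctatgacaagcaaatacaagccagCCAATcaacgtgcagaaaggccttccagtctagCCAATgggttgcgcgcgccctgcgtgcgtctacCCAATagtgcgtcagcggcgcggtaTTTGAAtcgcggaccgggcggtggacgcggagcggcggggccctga
CCAAT was found in 21 of 25 promoters of the list (84%), in 37.5% of the promoters of all genes tested and in 52% of those at least 2-fold higher in co-culture and not fibroblast-enriched. TTTGAA was found in 40% of the list, 11.8% of the genes tested and 32.4% of that last set. The Y box above contains a reversed CCAAT, so these counts overlap with it. Both motifs were added after the values were seen.

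Some genes typical of resident or alternatively activated macrophages were higher in co-culture in DMEM. Of 16 tested members of that list, 6 were higher in co-culture and 1, Pf4, in 4T1 CM alone. Fcrls, a receptor-like gene typical of microglia and tissue macrophages, stood at 569.9, 459.7, 418 and 389 in 4T1 CM alone and at 4564, 3939.8 and 3919 in co-culture in DMEM (log2 fold change -3.15 ± 0.28, adjusted p = 2.49e-06). In co-culture in 4T1 CM it was at 227, 204, 172 and 64.0, below every library of either group (adjusted p = 0.000673 against 4T1 CM alone), and at day 0 at 532, 680.4 and 509. The 3 libraries of co-culture in DMEM were thus the highest of the 14. Cbr2, a carbonyl reductase, was 4.71-fold higher in co-culture (adjusted p = 0.000366) and F13a1, the A chain of coagulation factor XIII, 3.99-fold (adjusted p = 0.00016). Folr2, a folate receptor, passed as well (log2 fold change -1.02 ± 0.24, adjusted p = 0.00719), but not when replicate 3 of co-culture in DMEM was left out (adjusted p = 0.0677).

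Spp1, which encodes the matrix protein and cytokine osteopontin, stood at 16046, 32117 and 34830.4 in co-culture in DMEM against 1678, 2762, 1812 and 1600.2 in 4T1 CM alone (log2 fold change -3.80 ± 0.26, adjusted p = 2.33e-07). Predicted fibroblast RNA made up 0.377% of it, and co-culture in 4T1 CM was at 20758, 21284, 19482 and 15076. Fn1, the gene of fibronectin, stood at 23.2, 163, 187 and 92.1 against 793, 1563 and 2697 (log2 fold change -3.83 ± 0.53, adjusted p = 0.000122), with a predicted fibroblast part of 26.4% in DMEM. Cx3cr1, the receptor of fractalkine, stood at 6.24, 29.4, 3.45 and 21.2 against 122, 138 and 216 (log2 fold change -3.49 ± 0.48, adjusted p = 0.000103). Cd5l, an inhibitor of apoptosis secreted by macrophages, stood at 2.68, 2.35, 0 and 0 against 49.7, 41.4 and 60.9 (adjusted p = 2.95e-05), and Klf2, a factor that dampens inflammatory genes, was 3.33-fold higher in co-culture (adjusted p = 0.00126).

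Among 14 CC chemokine and receptor genes, 5 were higher in co-culture in DMEM and 2 in 4T1 CM alone. The 5 became 3 without co-culture in DMEM replicate 1, and the 2 became 0 or 1 on leaving out any 1 of the 7 libraries. Ccl12, a ligand of CCR2, stood at 51.7, 80.0, 58.7 and 46.0 against 649.8, 449 and 484 (log2 fold change -3.14 ± 0.31, adjusted p = 5.27e-06). Ccl8 rested on co-culture in DMEM replicate 1 (1837, 607 and 462 in the 3 libraries against 142, 441, 156 and 117; adjusted p = 0.0136, and 0.14 without it).

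Of 27 genes of glycolysis and the hypoxia response, 11 were higher in co-culture in DMEM and 0 in 4T1 CM alone by edgeR, with a median log2 fold change of -0.58; 17 had an unadjusted p under 0.05 and DESeq2 called 12. Ankrd37, a target of the hypoxia-inducible factor HIF-1, stood at 34.8, 51.7, 52.6 and 31.1 in 4T1 CM alone and at 142, 167 and 314 in co-culture in DMEM (log2 fold change -2.27 ± 0.28, adjusted p = 3.52e-05). Slc2a1, the glucose transporter GLUT1, stood at 226, 219.9, 274 and 223 against 315, 405 and 496 (log2 fold change -0.76 ± 0.16, adjusted p = 0.00324), and Slc16a3, which exports lactate, at 864, 768, 1128 and 798 against 1403, 1461 and 1893 (log2 fold change -0.81 ± 0.16, adjusted p = 0.00243). Ldha, lactate dehydrogenase A, did not pass (log2 fold change -0.30 ± 0.15, adjusted p = 0.215). The count was 8 to 13 on leaving out 1 library each, and 3 passed a test against a 2-fold change. With both fibroblasts and 4T1 CM, Ankrd37 stood at 362, 337, 349 and 249.9 and Slc2a1 at 993, 788, 962 and 942, for the latter above every library of the groups compared. Predicted fibroblast RNA made up a median of 5.06% of the 11 genes' level in co-culture in DMEM, from 1.38% to 81.7%.

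The promoter of Ankrd37 is shown with the core of the hypoxia response element, ACGTG on either strand, in capitals. It lies at chr8:45999801-46000100 on the minus strand of GRCm38.p6.
Ankrd37: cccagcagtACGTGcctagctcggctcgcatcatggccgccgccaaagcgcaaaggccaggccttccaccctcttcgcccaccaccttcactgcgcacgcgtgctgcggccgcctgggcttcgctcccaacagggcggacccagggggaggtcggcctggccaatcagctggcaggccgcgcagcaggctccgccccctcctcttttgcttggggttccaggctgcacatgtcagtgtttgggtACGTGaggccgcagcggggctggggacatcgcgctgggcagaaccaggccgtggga
The core was found in 21 of 35 promoters of the list (60%), in 26.3% of the promoters of all genes tested and in 21.5% of those at least 2-fold higher in co-culture and not fibroblast-enriched.

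Metabolic genes of other kinds differed by member. Scd2 and Fads2, which introduce double bonds into fatty acids, stood at 74.9, 50.6, 69.9 and 63.5 against 337, 355 and 342 (log2 fold change -2.39 ± 0.17, adjusted p = 2.38e-07) and at 19.6, 11.8, 11.2 and 6.22 against 98.2, 93.4 and 86.4 (log2 fold change -2.85 ± 0.31, adjusted p = 1.19e-05), with predicted fibroblast parts of 29.4% and 16.1%. The arginases went apart. Arg1, the cytosolic arginase, was at 56.2, 186, 367 and 117 in 4T1 CM alone and at 365, 2063 and 3848 in co-culture in DMEM, which overlap narrowly (log2 fold change -3.50 ± 0.75, adjusted p = 0.00441), and at 34782, 36179, 30841 and 23840.2 in co-culture in 4T1 CM. Arg2, the mitochondrial arginase, was instead higher in 4T1 CM alone, at 648, 444, 432 and 434 against 165, 122 and 96.9 (log2 fold change 1.97 ± 0.21, adjusted p = 9.51e-06).

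Several basic functions were not called. None of the 22 tested genes of the respiratory chain and none of the 17 ER chaperone genes passed by edgeR, with 3 and 2 at an unadjusted p under 0.05 and 1 and 0 called by DESeq2. Their median log2 fold changes were 0.04 and 0.13. Of 20 genes of cholesterol synthesis, 1 was higher in co-culture in DMEM, and 0 without co-culture in DMEM replicate 2.

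Genes of fibroblasts made up a large part of what was higher in co-culture. All 21 tested fibroblast markers were higher in co-culture in DMEM. The summed level of the 24 listed markers was 3371 to 12372 in co-culture in DMEM against 37.3 to 288 in 4T1 CM alone. Col1a2, a chain of collagen I, stood at 1.78, 16.5, 50.9 and 2.49 against 793, 854 and 2539.7 (adjusted p = 0.000125), and the predicted fibroblast RNA was 85.8% of its level. Over the 21 markers the prediction was 61.6% to 219% of the measured level. The markers define the share that makes the prediction, so this describes the fit of 1 number to the markers and tests nothing. Over the 322 called fibroblast-enriched genes its median was 77.7%. Of the 511 genes higher in co-culture and not fibroblast-enriched, 483 had a predicted value, with a median of 4.51% and 3 at 25% or more. The rule for fibroblast-enriched genes sets genes of high fibroblast level apart beforehand, so both medians are in part set by it. Csf1, the ligand of Csf1r, stood at 67.5, 102 and 259 in co-culture in DMEM and at 18.7, 11.8, 13.8 and 8.71 in 4T1 CM alone (adjusted p = 0.000843), with a predicted fibroblast part of 91.8%. After subtraction of the predicted reads its log2 fold change was 0.21 (adjusted p = 0.956).

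**Figure D4:**
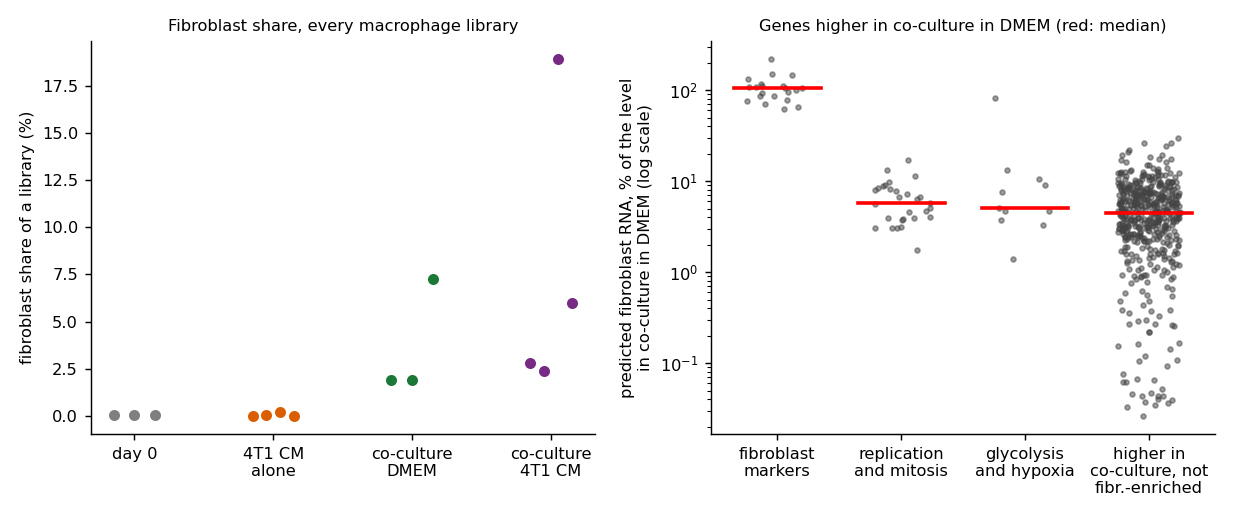
Left, the fibroblast share of every macrophage library in percent, which was at most 0.195% in 4T1 CM alone and 1.90% to 7.24% in co-culture in DMEM. Right, for genes higher in co-culture in DMEM, predicted fibroblast RNA in percent of the measured level (log scale, 1 point per gene, red line at the median). The fibroblast markers sit near 100% and the other sets near 5%.

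The largest fibroblast-enriched differences were those of H19, Fmod, Serping1, Nid1, Cd248, Prelp, Plod2, Sod3, Slit3 and Col6a2. H19, Fmod and Nid1 had no read in 4T1 CM alone and averaged 37.5 ± 19.5, 37.3 ± 20.0 and 22.6 ± 15.6 in co-culture in DMEM. Among the 7 libraries compared, all 10 were highest in co-culture in DMEM replicate 3, which has the highest fibroblast share of them.

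Macrophages given both fibroblasts and 4T1 CM were placed between the groups compared. For each called gene with a change of at least 2-fold, the position of co-culture in 4T1 CM was computed on mean log2 CPM, where 0 is the level in co-culture in DMEM and 1 the level in 4T1 CM alone. These genes were chosen on the difference that forms the scale, so the position is a description with no test. Over 596 genes that were not fibroblast-enriched the median was 0.40, and the medians of the 4 libraries ran from 0.26 to 0.44. For the 253 genes higher in 4T1 CM alone, 101 lay at or under 0.25 and 77 at or over 0.75, with the other 75 between. Of the 343 genes higher in co-culture in DMEM, 97 lay at or under 0.25, 44 at or over 0.75 and 202 between. In all, 106 of the 596 lay below 0 and 72 above 1.

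The gene groups took different places on this scale. The median over all called members of a list, of any fold change, was 0.07 for MHC class II presentation and -0.08 for the interferon response, near the level in co-culture in DMEM. Mmp8, Pf4, F7 and F10 lay at 1.02, 1.05, 1.12 and 0.99, near the level in 4T1 CM alone, as did Cd274 at 1.02 and Cd86 at 0.99. DNA replication and mitosis lay between, at 0.38. Glycolysis and hypoxia lay beyond co-culture in DMEM, at -0.67, where the level with both fibroblasts and 4T1 CM exceeded that with either. Fcrls lay at 1.51, beyond 4T1 CM alone.

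**Figure D5:**
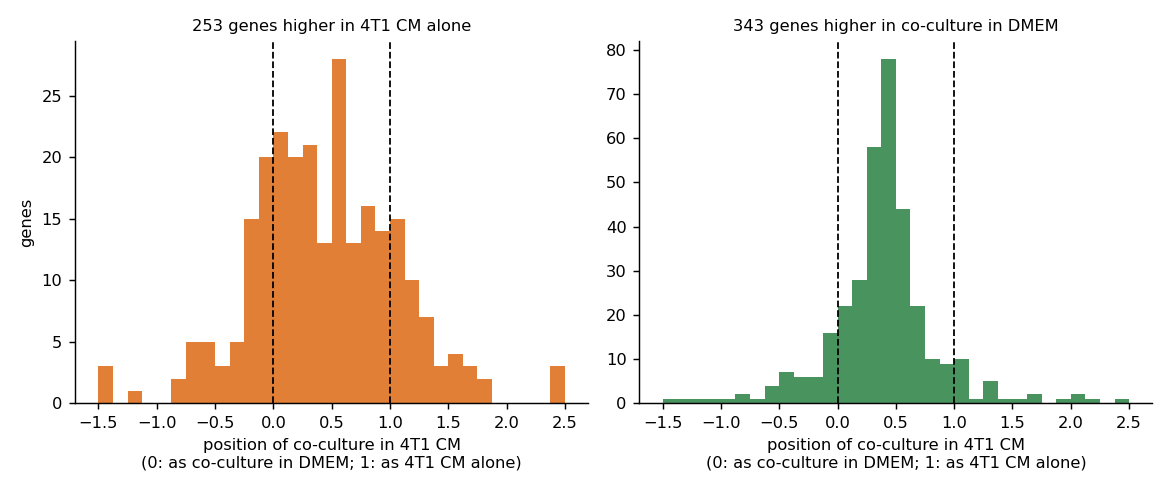
Number of genes (y axis) by the position of co-culture in 4T1 CM (x axis) between co-culture in DMEM (0) and 4T1 CM alone (1), for called genes with a change of at least 2-fold that were not fibroblast-enriched, with values beyond the axis set to its ends. The 253 genes higher in 4T1 CM alone (left) had their median at 0.44 and spread from below 0 to above 1, and the 343 genes higher in co-culture in DMEM (right) had their median at 0.40.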

How the data were processed

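Raw 3' end read counts per gene in macrophages were deposited by the authors in 1 table, with values divided by the authors' size factors (a normalized signal) beside them for macrophages, and normalized signal only for fibroblasts. The submitters' processing notes list mm10 as build and HTSeq, STAR 2.4.2a and bcl2fastq as tools, with no roles or order. Fibroblast values, used only for the fibroblast share and prediction, became whole reads within 0.01 on recovery. Genes listed have at least 6 reads in 1 library, as the deposited counts show. Column heads were matched to sample titles.

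All 14 macrophage libraries entered 1 edgeR 4.0.16 quasi-likelihood fit (R 4.3.3, TMM factors, filterByExpr, Benjamini-Hochberg adjustment), tested on simulated data. Depth was 1434695 to 4140985 reads per library, and duplicate libraries were not found. Predicted fibroblast reads are the share of a library times the level in co-cultured fibroblasts. CPM on a log2 scale used a prior count of 2. The 15 largest changes each way were named among called genes with at least 2-fold change, a mean of 20 normalized reads in the higher group and no overlap, and again without fibroblast-enriched genes; other genes come from gene lists, smallest adjusted p first. Members and lists were chosen with earlier results of these data known. Alternatives were DESeq2 1.42.0, other factors and filters, a test against 2-fold, a replicate block, subtraction of fibroblast RNA and leaving out libraries. Promoters come from RefSeq on GRCm38.p6 and gene coordinates from GENCODE on mm10. Some items are not reported here.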

Additional observations from a re-analysis of the deposited data

Results flagged for a closer look

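In 4T1 CM alone, the highest or lowest of the 4 libraries lay far from the other 3 for 18 of the 113 genes examined, by Dixon's test. For continuous, normally spread values, chance alone passes this test in about 1 in 20 groups. That rate does not hold for genes at 0 in the other libraries, where even 1 read passes. The 18 can therefore not be set against that rate. The groups of 3 libraries are too small for the test. No explanation was tested.

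Replicate 1 stood apart for 6 of these genes. Arg2 was at 648 there and at 432 to 444 in the others, Hp at 512 and Ly6i at 219. Itgam was at 2049 there, which was its lowest value. Prelp and Serping1, both fibroblast-enriched, were at 0.892 and 1.78 there and at 0 in the other libraries.

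Replicate 2 stood apart for 6 genes. Ccl8 was at 441, Clec12a at 199 and Ube2c at 5.88. Ccna2 was at 3.53, and Pimreg and Plod2 were each at 1.18, which is 1 read, with none in the other libraries.

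Replicate 3 stood apart for 6 genes. Slc2a1 was at 274, still below every library of co-culture in DMEM. Cep55, Neil3 and Slit3 were each at 0.863, which is 1 read. Col6a2 was at 4.31 and Sod3 at 2.59, and both were at 0 in the other libraries.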

How the results depend on the processing

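The 1462 calls numbered 1449 with the size factors of the RLE method, 1552 with no filter on low counts, 1276 with a minimum of 20 reads in 3 libraries, 1134 with only the groups compared in the fit, 1525 with DESeq2 and 1072 without fibroblast-enriched genes. With the predicted fibroblast reads subtracted, 1051 genes were called and 552 of them were higher in co-culture. Tested against a change of 2-fold, 425 passed, 99 higher in 4T1 CM alone and 326 higher in co-culture. Leaving out 1 library at a time gave 997 to 1401 calls, of which 413 to 594 were higher in 4T1 CM alone and 584 to 807 in co-culture, the lowest of each without co-culture in DMEM replicate 3. Without the 2 co-culture libraries of highest fibroblast share, an alternative chosen after seeing the data, 1104 were called. The fibroblast share of a library in co-culture in DMEM averaged 1.90% to 4.57% on leaving out 1 library. The median position of co-culture in 4T1 CM was 0.39 to 0.43 on leaving out 1 library and 0.39 to 0.41 under the other alternatives but the one that leaves out 2 libraries, where it was 0.43.

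With the replicate number as a block, 1359 genes were called. Deviations of same-numbered libraries correlated at 0.17, -0.16 and 0.11, so that the number was not taken to pair them. Replicates 1 and 3 of co-culture in DMEM correlated best with their own number in 4T1 CM alone and replicate 2 with replicate 3. Adgre1, which was not called, changed sign at -0.00949 with fibroblast RNA subtracted, at -0.0908 without the 2 co-culture libraries of highest share, and at -0.0896 without co-culture in DMEM replicate 3 and at -0.00427 without 4T1 CM alone replicate 4 (all log2). Csf1 turned to 0.21 with fibroblast RNA subtracted, where the subtraction itself removes most of its reads. Moderate changes rest on 3 against 4 libraries, and genes of a few reads are measured coarsely.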

Other observations

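Transcription factors of macrophages were called mostly in 1 direction: of 23 tested, 10 were higher in 4T1 CM alone and 1, Klf2, in co-culture in DMEM. Id3, a target of BMP and TGF-beta signaling, stood at 821, 561, 755 and 659 in 4T1 CM alone and at 42.6, 83.8 and 161 in co-culture in DMEM (log2 fold change 2.85 ± 0.45, adjusted p = 0.00036). Predicted fibroblast RNA was 113% of its level in co-culture. Runx1, a factor of blood cell development, stood at 279, 269, 196 and 292 against 147, 153 and 139 (log2 fold change 0.84 ± 0.16, adjusted p = 0.00178) and Batf, a partner of AP-1 factors, at 176, 143, 145 and 149 against 103, 75.3 and 98.2 (log2 fold change 0.75 ± 0.15, adjusted p = 0.00227). The groups did not overlap for these 3 genes.

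C-type lectins, receptors that bind sugars on microbes and cells, split evenly, with 4 of 10 tested genes higher in each group. Clec4a1 was 2.64-fold higher in 4T1 CM alone (adjusted p = 0.00315), while Clec12a, an inhibitory receptor of myeloid cells, stood at 124, 199, 116 and 123 against 552, 370.3 and 471 in co-culture in DMEM (log2 fold change -1.71 ± 0.23, adjusted p = 9.96e-05). Both counts of 4 became 2 on leaving out a library, the first without co-culture in DMEM replicate 3 and the second without co-culture in DMEM replicate 1. Of 15 complement genes, 2 were higher in 4T1 CM alone and 3 in co-culture. Cfp, which encodes properdin, the positive regulator of the alternative pathway, stood at 7186, 6077, 7362 and 5351 against 4406, 4073 and 3321 (log2 fold change 0.74 ± 0.15, adjusted p = 0.00255). Serping1, the C1 inhibitor, was the most different of the 3, with a predicted fibroblast part of 58.7%, and its adjusted p was 0.0676 after subtraction of the predicted reads. C1s1 and C4b, also higher in co-culture, had predicted fibroblast parts of 116% and 34.3%.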
